A study of Sus scrofa with 4 samples.

Results

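miR-452, miR-224 and miR-1249, listed as ssc-miR-452, ssc-miR-224 and ssc-miR-1249, are 3 of the 321 annotated pig miRNAs left after duplicate rows were merged (326 rows as deposited), each taken in any arm that was listed. They were chosen from the reads in these same libraries. For miR-452 the difference between iron-treated and untreated piglets ran opposite ways in the dorsal and ventral hippocampus. miR-1249 was higher with iron in dorsal, at a ratio of 2.07, and only slightly lower in ventral, at 0.861. Its ventral interval for counting error included 1 under some other processing. miR-224, taken as the pair of miR-452, had iron ratios of 0.579 in dorsal and 0.196 in ventral, on few reads. Both intervals included 1, so the direction of the miR-224 ratios is not settled. Because of this choice, all levels and ratios below describe the libraries and carry no test. The conserved-sequence table, a second table of the same libraries, holds 13 sequences of the families mir-452, mir-224 and mir-1249 among its 2791 rows.

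The tissue was hippocampus from newborn piglets of the Rongchang breed of China, given as "wide type" in the labels. They were 8 littermates, of which 4 were female and 4 male. Each treatment had 4 piglets, with the same sex ratio in both. The oxidative stress group was injected intramuscularly with iron dextran, a complex of iron with a sugar polymer, at 200 mg on postnatal days 3 and 4, and the control group was not. Tissue was mixed within each combination into 1 small RNA library, which gave iron dorsal, iron ventral, control dorsal and control ventral, and neither the number of piglets per pool nor the age at sampling is given in the sources used here. No combination has a replicate, and the regions of a treatment come from the same group of 4 piglets. The libraries held 11396809 to 13839556 annotated reads, and neuron-enriched miRNAs, 12 rows led by miR-9, summed to 283151 to 318944 CPM in each (CPM is a count relative to the library total after scaling between libraries).

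MicroRNAs are short RNAs, cut from hairpin precursors, that lower the output of messenger RNAs through pairing of their seed, bases 2 to 8 counted from the 5′ end. miR-224 and miR-452 are X-linked in human and mouse and lie in the gene GABRE, which encodes the epsilon subunit of the GABA-A receptor, the main inhibitory neurotransmitter receptor of the brain. In human tumours they are known to be transcribed together with that gene, and in mouse miR-452 is known from the neural crest. In RefSeq's Sscrofa11.1 pig annotation, used here for gene neighbours only, MIR224 and MIR452 are each other's nearest miRNA gene and the 2 miRNA genes inside GABRE. miR-1249 has its own host: MIR1249-1 lies inside KIAA0930, with no other miRNA gene in it, and the second precursor of the annotated row, mir-1249-2, had no match by name.

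The sequences that carried the reads are shown here 5′ to 3′ as the conserved table gives them, with the seed in capitals. Names start with a species code because the table names each sequence after 1 of the species that share it. The hsa-miR-452-5p, ssc-miR-224 and mmu-miR-1249-3p sequences are the ones listed for pig, and the others differ from them at an end or come from the other arm of the hairpin.
hsa-miR-452-5p: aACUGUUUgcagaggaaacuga
rno-miR-452-5p: aACUGUUUgcagaggaaacugag
mmu-miR-452-5p: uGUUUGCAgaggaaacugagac
ssc-miR-224: cAAGUCACuagugguuccguuua
mmu-miR-1249-3p: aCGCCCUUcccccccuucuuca
eca-miR-1249: aACGCCCUucccccccuucuuca
hsa-miR-1249-5p: aGGAGGGAggagaugggccaaguu
The mmu-miR-452-5p sequence begins 3 bases inside the pig-listed one, and so it has another seed. eca-miR-1249 has 1 extra base at its 5′ end, which also moves the seed. miR-1249-3p is rich in C, with 63.6% G or C and a run of 7 C, against 40.9% G or C in hsa-miR-452-5p and 43.5% in ssc-miR-224. The 13 sequences have 10 distinct seeds, and 0 of the sequences of other families in the table share any of them. Although miR-452 and miR-224 share a host gene, they do not share a seed.

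miR-452 had 399 reads in iron dorsal, 120 in iron ventral, 135 in control dorsal and 502 in control ventral. On the scaled level these were 37.5 CPM in iron dorsal (95% Poisson interval 33.9 to 41.3), 9.73 CPM in iron ventral (8.07 to 11.6), 10.9 CPM in control dorsal (9.17 to 12.9) and 34.6 CPM in control ventral (31.7 to 37.8). The libraries formed 2 levels, with iron dorsal and control ventral high and the other 2 low, and within each level the intervals overlapped. All such intervals cover counting error only, because no combination of treatment and region has a replicate. Amplified reads without molecular identifiers are not independent molecules, so the intervals may be too narrow even for counting error. In mixed tissue, fewer cells that hold a miRNA and less of it per cell cannot be told apart. Among the 321 annotated miRNAs it ranked 212th by reads in iron dorsal and 214th in control ventral, against 248th in iron ventral and 247th in control dorsal.

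miR-1249 had 322 reads in iron dorsal, 315 in iron ventral, 180 in control dorsal and 430 in control ventral. Its levels were 30.2 CPM in iron dorsal (27.03 to 33.7), 25.5 CPM in iron ventral (22.8 to 28.5), 14.6 CPM in control dorsal (12.5 to 16.9) and 29.7 CPM in control ventral (26.9 to 32.6). Here a single library, control dorsal, stood below the other 3, whose intervals overlapped. The row joins the reads of both precursors, mir-1249-1 and mir-1249-2, which cannot be separated. miR-224 was close to the limit of detection, with 2 reads in iron dorsal, 1 in iron ventral, 4 in control dorsal and 6 in control ventral. That is 0.188 CPM, 0.0811 CPM, 0.324 CPM and 0.414 CPM, where 3 reads, as many as a count of 0 leaves possible, equal 0.207 to 0.282 CPM. Its 4 intervals overlapped, which does not settle whether its level differed, and the depth is too low to tell. A minimum of 10 CPM in at least 1 library, which 251 annotated miRNAs met, was met by 2 of the 3 members, miR-452 and miR-1249. In iron ventral miR-452 itself was below that minimum.

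**Figure D1:**
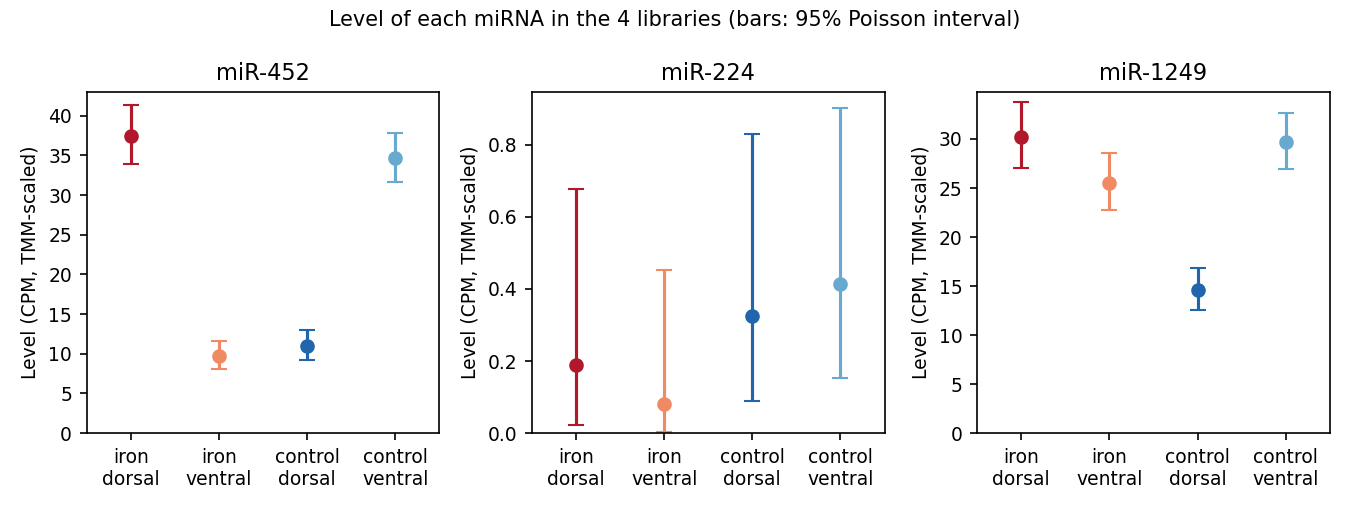
Level in CPM (vertical axis, from 0, with its own scale in each panel) of miR-452, miR-224 and miR-1249 in the 4 pooled libraries (horizontal axis); points are single libraries and bars are 95% Poisson intervals for counting error. miR-452 stood at 37.5 and 34.6 CPM in iron dorsal and control ventral but at 9.73 and 10.9 CPM in iron ventral and control dorsal, while miR-1249 was low in control dorsal alone and miR-224 stayed under 0.5 CPM in all 4.

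In the dorsal hippocampus the comparison of iron with control asks which miRNAs differ after the injections. miR-452 stood at 37.5 CPM in iron dorsal and 10.9 CPM in control dorsal, a ratio of 3.43 (95% counting interval 2.81 to 4.195, exact conditional binomial). miR-1249 stood at 30.2 CPM in iron dorsal and 14.6 CPM in control dorsal, a ratio of 2.07 (1.72 to 2.502). A miRNA was counted as different when it differed by 2-fold or more with an interval that left out 1. By this measure both members were higher, and they were the 2 miRNAs so counted among 251, or 0.797%, while 0 were lower. The miR-1249 count rests on the scaling, because its log2 ratio of 1.05 became 0.93 with total reads and 0.94 with the authors' RPM, both under 2-fold. miR-224, at 2 reads in iron dorsal and 4 in control dorsal, had a ratio of 0.579 with an interval of 0.0524 to 4.04.

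In the ventral hippocampus miR-452 went the other way. It stood at 9.73 CPM in iron ventral and 34.6 CPM in control ventral, 3.56-fold lower (2.91 to 4.38). The lower side held 4 of 251 miRNAs, or 1.59%, of which miR-452 was 1. The others were miR-183, miR-96-5p and miR-182, a cluster known for its role in sensory organs. The higher side held 1 miRNA (0.398%), miR-146b, at a ratio of 2.30. miR-1249 had a ratio of 0.861 (0.742 to 0.998), so it was slightly lower in iron ventral but far from 2-fold. That interval reached past 1 with DESeq2 size factors and in the conserved table. The single miR-224 read in iron ventral, against 6 in control ventral, gave a ratio of 0.196 with an interval of 0.0043 to 1.61.

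Dorsal against ventral asks how the regions differ within a treatment. In iron piglets miR-452 stood at 37.5 CPM in dorsal and 9.73 CPM in ventral, a ratio of 3.85 (3.13 to 4.76), and it was the 1 miRNA of 251 counted as higher, or 0.398%. In control piglets it stood at 10.9 CPM in dorsal and 34.6 CPM in ventral, 3.17-fold lower (2.61 to 3.86), among 4 miRNAs counted as lower, or 1.59%, while miR-146b alone was higher, at a ratio of 2.46. miR-1249 was a second of these 4, at 14.6 CPM in control dorsal and 29.7 CPM in control ventral, 2.03-fold lower (1.71 to 2.43). With the authors' RPM its log2 ratio of -1.02 became -0.99, and in the conserved table it was also -0.99, so the 2-fold count was lost in both. In iron piglets the regions were close, with a miR-1249 ratio of 1.18 (1.01 to 1.39), and the interval included 1 with total reads, the authors' RPM, rows not merged or the conserved table. miR-224 had 4 reads in control dorsal and 6 in control ventral, a ratio of 0.783 (0.162 to 3.30), and no ratio is given in iron piglets, where both libraries were at or under 3 reads. Each library enters 2 of these 4 comparisons, so their ratios are not independent.

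**Figure D2:**
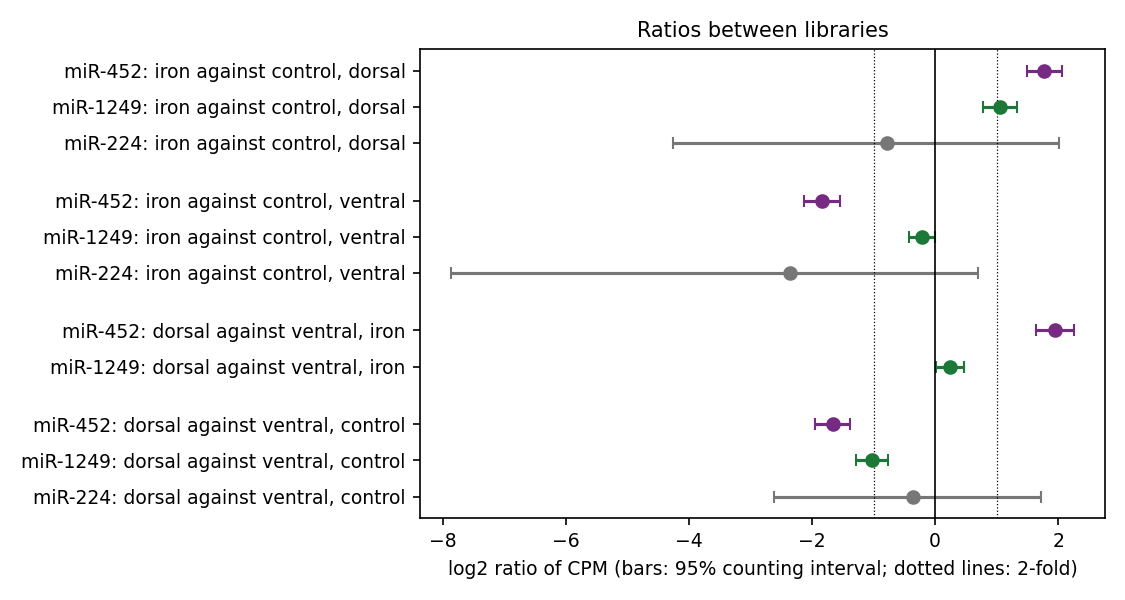
Log2 ratio of CPM (horizontal axis) for miR-452, miR-1249 and miR-224 in the 4 comparisons of libraries (rows); bars are 95% counting intervals and the dotted lines mark 2-fold. The miR-452 points lie at 1.78 and 1.95 for iron against control in dorsal and dorsal against ventral in iron piglets, and at -1.83 and -1.66 in the other 2 comparisons; the miR-224 bars span several units.

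The log2 iron ratio in dorsal minus that in ventral, called the crossed difference here, was 3.61 for miR-452 (counting interval 3.21 to 4.01) and 1.27 for miR-1249 (0.931 to 1.60). These ranked first and sixth among the 251 measured miRNAs, whose crossed differences had a median of -0.02 and a central 95% range of -0.77 to 1.14. Of the 251, 9 (3.59%) had a crossed difference of at least 1 and 2 (0.797%) had one of -1 or less. Averaged over both regions, the log2 difference of iron minus control was -0.03 for miR-452 and 0.42 for miR-1249. Averaged over both treatments, dorsal minus ventral was 0.14 for miR-452 and -0.39 for miR-1249. An average over regions thus hid the 3- to 4-fold gaps between single libraries of miR-452. For miR-224 the crossed difference was 1.56 with an interval of -2.35 to 5.48, which spans 0.

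Iron ratios on opposite sides of 1 were common. Of 251 miRNAs, 32 (12.7%) were higher with iron in dorsal and lower in ventral with both intervals excluding 1, as miR-452 and miR-1249 were, and 45 (17.9%) showed the opposite. For miR-1249 this was marginal, because its ventral interval of 0.742 to 0.998 reached past 1 with DESeq2 size factors and in the conserved table. Among the 51 miRNAs with a mean of 10 to 50 CPM, the range that holds both members, 4 (7.84%) had a crossed difference of at least 1. Besides the members these were miR-183, at 2.68, and miR-96-5p, at 1.98, and 0 of the 51 were at -1 or less.

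**Figure D3:**
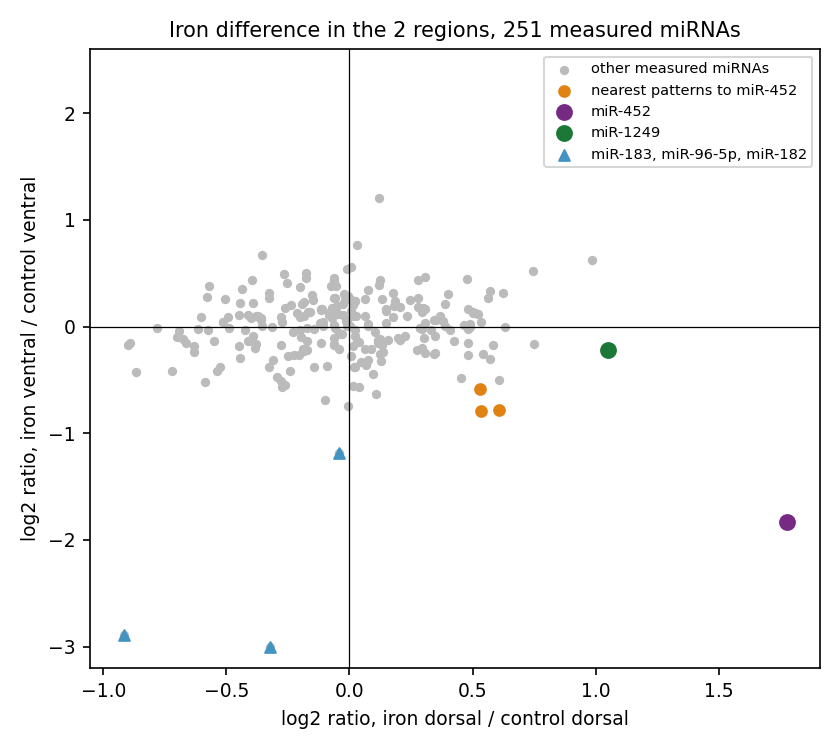
Log2 iron ratio in dorsal (horizontal axis) against that in ventral hippocampus (vertical axis) for 251 measured miRNAs; each point is 1 miRNA. miR-452 lies at the lower right, at 1.78 and -1.83, miR-1249 at 1.05 and -0.22, and the miR-183 cluster lies low on the vertical axis without being high on the horizontal one.

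The control ventral library stood apart from the other 3 in the miR-183 cluster and in miR-146b, and miR-452 was high in it too. Summed over miR-183, miR-96-5p and miR-182, the cluster stood at 138 CPM in iron dorsal, 127 CPM in iron ventral, 153 CPM in control dorsal and 453 CPM in control ventral. Rows of the epithelial miR-200 group and miR-205, 2 in the table, summed to 1.69 CPM, 2.11 CPM, 3.57 CPM and 6.69 CPM in the same order, and 0 of the 2 reached 10 CPM. The cluster was thus high in 1 of the 2 libraries in which miR-452 was high. The immune-associated miR-146b went the other way in that library, at 1019 CPM in iron dorsal, 875 CPM in iron ventral, 937 CPM in control dorsal and 380.2 CPM in control ventral. Other measured immune-associated miRNAs lacked this drop. In that order miR-142-5p stood at 542, 586, 588 and 653 CPM, and miR-142-3p at 47.1, 74.9, 85.9 and 100.5 CPM. miR-146a-5p stood at 114, 110, 135 and 147 CPM, and miR-150 at 107, 100, 118 and 130 CPM. Control ventral was highest for each of these, while miR-155-5p was nearly flat, at 78.5, 78.9, 82.0 and 78.0 CPM. Control ventral does not enter the iron comparison in dorsal or the regional comparison in iron piglets, and the part of its difference in the other miR-452 ratios was not tested. Other marker lists were spread otherwise. Ciliated ependymal miR-34c stood at 4194 CPM in iron dorsal, 7028 CPM in iron ventral, 6910 CPM in control dorsal and 9409 CPM in control ventral. Oligodendrocyte miRNAs, 3 rows led by miR-219b-3p, summed to 8812 CPM, 13906 CPM, 11503 CPM and 10264 CPM in that order. Choroid plexus miR-204 stood at 164 CPM, 178 CPM, 199 CPM and 253 CPM. Of 13 such marker lists, 1 had its highest sums in iron dorsal and control ventral, the neuron-enriched list, which holds miR-7. It summed to 292123 CPM in iron dorsal, 283151 CPM in iron ventral, 285840 CPM in control dorsal and 318944 CPM in control ventral. Without miR-7 the order was another: the other 11 rows summed to 239549 CPM in iron dorsal, 254450 CPM in iron ventral, 249501 CPM in control dorsal and 269211 CPM in control ventral, with iron dorsal lowest. These sums are mostly miR-9-2, at 180323 CPM in iron dorsal. Of the 11 measured members of the list 5 had a crossed difference above 0, against 123 (49.0%) of all 251. Their median was -0.16, with a lowest value of -0.79 for miR-128. The part of these cell types in the miR-452 difference was not tested.

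The miRNAs whose pattern over the 4 libraries came closest to that of miR-452 were miR-7857-3p, miR-7 and miR-708-5p. Likeness was the root mean square difference of log2(CPM + 0.5) after centring each miRNA over the 4 libraries, and it was 0.535, 0.55 and 0.598, against 0.88 for a flat profile. The abundant miR-7, known from neurons and neuroendocrine cells, stood at 52574 CPM in iron dorsal, 28702 CPM in iron ventral, 36339 CPM in control dorsal and 49733 CPM in control ventral. miR-7857-3p stood at 133 CPM, 69.8 CPM, 87.6 CPM and 120.4 CPM in that order, and miR-708-5p at 786 CPM, 501 CPM, 544 CPM and 753 CPM. All 3 were highest in iron dorsal, followed by control ventral, control dorsal and iron ventral, the order of the miR-452 values. They were picked for likeness to miR-452, so a shared order follows largely from that choice. The other arm of miR-708, miR-708-3p, had another order. It stood at 261 CPM in iron dorsal, 205 CPM in iron ventral, 242 CPM in control dorsal and 317 CPM in control ventral. Within each of its 2 levels the miR-452 intervals overlapped, so its order there is not settled. Their crossed differences, 1.39 for miR-7857-3p, 1.33 for miR-7 and 1.12 for miR-708-5p, were smaller than that of miR-452, and none reached 2-fold in any of the 4 comparisons.

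miR-1249 had nearer neighbours. They were miR-363, at a root mean square difference of 0.195, miR-532-3p at 0.253 and miR-4334-3p at 0.256, against 0.417 for a flat profile. miR-363 stood at 2601 CPM in iron dorsal, 1953 CPM in iron ventral, 1546 CPM in control dorsal and 2188 CPM in control ventral. miR-532-3p stood at 37.5 CPM, 39.3 CPM, 25.4 CPM and 32.6 CPM, and miR-4334-3p at 216 CPM, 203 CPM, 170 CPM and 240.1 CPM in the same order. Control dorsal was the lowest library for all 3, as for miR-1249, which follows largely from their choice by likeness. The other arm of miR-532, miR-532-5p, was lowest in iron ventral, at 389 CPM, against 427 CPM in control dorsal. For miR-224 the nearest were miR-326 at 0.0407, miR-376a-5p at 0.0751 and miR-335 at 0.0898, but its levels lie under the 0.5 CPM added before the logarithm, so its profile is flattened and these values say little.

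Within a library, the ratio of the GABRE-hosted miRNAs to each other does not depend on scaling. There were 0.501 reads of miR-224 per 100 reads of miR-452 in iron dorsal (0.0605 to 1.82), 0.833 in iron ventral (0.0209 to 4.73), 2.96 in control dorsal (0.796 to 7.76) and 1.195 in control ventral (0.436 to 2.62). Over all 4 libraries there were 13 reads of miR-224 and 1156 of miR-452, or 1 to 88.9 (51.8 to 168). The library intervals overlapped, which does not settle whether the ratio differed between libraries. With so few reads of miR-224, such a difference was not tested.

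Nearby on the X chromosome, the gene GABRA3 encodes another subunit of the same receptor and holds MIR105-1 and MIR105-2 in the Sscrofa11.1 annotation. miR-105-1 stood at 128 CPM in iron dorsal, 88.1 CPM in iron ventral, 88.1 CPM in control dorsal and 105 CPM in control ventral. Its log2 iron ratio was 0.54 in dorsal and -0.26 in ventral, with a crossed difference of 0.80. miR-105-2, below the minimum, stood at 5.07 CPM, 3.89 CPM, 4.70 CPM and 5.73 CPM, with a crossed difference of 0.67. The signs were those of miR-452, but the sizes were far smaller. These signs, with both intervals excluding 1, were found in 32 (12.7%) of the 251 measured miRNAs, so they do not set miR-105-1 apart. For miR-105-2 the dorsal sign rested on 54 reads in iron dorsal and 58 in control dorsal, so it is not settled. Reads could have been split between the 2 rows in counting, since both carry the same miRNA number.

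A list of X-linked miRNAs other than miR-452 and miR-224, drawn up from human and mouse and not necessarily complete, had 42 rows in the table. Of the 42 rows, 38 lie on the pig X chromosome in the Sscrofa11.1 annotation and 4 had no match by name. Of these 35 reached 10 CPM, and 0 of the 35 were counted as 2-fold different in any of the 4 comparisons, against 7 (2.79%) of all 251, a share too small to read anything from the 0. Their median log2 iron ratio was 0.12 in dorsal and -0.07 in ventral, against -0.02 and 0.00 over all 251 miRNAs. The median crossed difference was 0.10, with 19 of 35 above 0 against 123 (49.0%) of all 251, and the list ran from -0.76 for miR-374a-5p to 0.93 for miR-504. miR-504 stood at 200.3 CPM in iron dorsal, 149 CPM in iron ventral, 147 CPM in control dorsal and 209 CPM in control ventral. miR-374a-5p, the most abundant of the list, stood at 8834 CPM, 10299 CPM, 12541 CPM and 8617 CPM in that order, with iron dorsal and control ventral as its 2 lowest libraries.

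**Figure D4:**
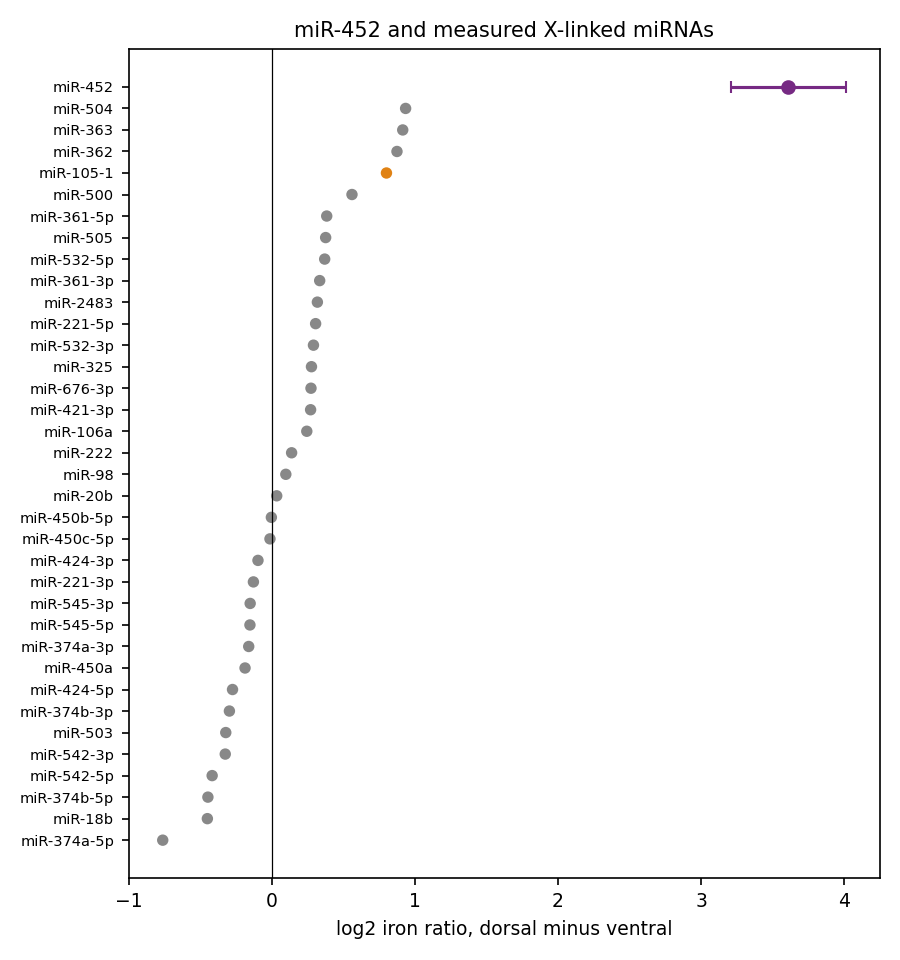
Crossed difference (log2 iron ratio in dorsal minus ventral, horizontal axis) of miR-452, with its counting interval, and of 35 measured X-linked miRNAs (rows); the orange point is miR-105-1 of GABRA3. The 35 lie between -0.76 and 0.93, and miR-452 lies at 3.61.

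The conserved table gives the same libraries by sequence. Its mir-452 family summed to 335 reads in iron dorsal, 99 in iron ventral, 116 in control dorsal and 426 in control ventral, 82.5% to 85.9% of the annotated row. As fractions of reads show, the authors divided reads among sequences that match them alike, so the sequences of a family are not separate measurements. The rat-named rno-miR-452-5p, 1 base longer than the pig-listed sequence, took the largest share, at 59.6% in iron dorsal, 58.8% in iron ventral, 61.8% in control dorsal and 58.3% in control ventral. The pig-listed sequence took 32.7%, 27.9%, 28.6% and 32.2% in that order. mmu-miR-452-5p, with the moved seed, took 7.76%, 13.3%, 8.76% and 9.47%, on 10.17 to 40.3 reads. All 3 were high in iron dorsal and control ventral: the crossed difference was 3.55 for rno-miR-452-5p, 4.01 for hsa-miR-452-5p and 2.95 for mmu-miR-452-5p. The fourth sequence, efu-miR-452, does not overlap the pig-listed one and had 1 read, in control dorsal.

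The mir-1249 family summed to 242 reads in iron dorsal, 250.0 in iron ventral, 134 in control dorsal and 312 in control ventral, 72.6% to 79.4% of the annotated row. mmu-miR-1249-3p and eca-miR-1249, which differ by the extra first base of eca-miR-1249, had nearly equal shares, 50.4% and 47.9% in iron dorsal and 49.2% and 48.6% in control ventral. Reads that match both alike were divided between them, so these shares do not tell how much of miR-1249 carried the moved seed. The crossed differences of mmu-miR-1249-3p and eca-miR-1249 were 1.19 and 1.197, which are for the same reason not separate measurements. The 5p arm, summed over its 2 sequences, had 4 reads in iron dorsal, 9 in iron ventral, 4 in control dorsal and 7 in control ventral. That was 1.65% of the family in iron dorsal (exact binomial 95% interval 0.452% to 4.18%), 3.6% in iron ventral (1.66% to 6.72%), 2.99% in control dorsal (0.819% to 7.47%) and 2.24% in control ventral (0.907% to 4.57%). These intervals overlapped, which does not settle whether the arm share differed, and such a difference was not tested.

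The mir-224 family had 3 reads in iron dorsal, 1 in iron ventral, 4 in control dorsal and 7 in control ventral. Of these, 2 reads in iron dorsal, 4 in control dorsal and 6 in control ventral were of the arm of the printed sequence, and 0 in iron ventral, whose 1 read was assigned to the 3p sequence chi-miR-224-3p. Summed by family, mir-452 was 3.35-fold higher (2.70 to 4.17) in iron dorsal than in control dorsal and 3.66-fold lower (2.94 to 4.60) in iron ventral than in control ventral. Of 188 families at 10 CPM or more, 2 (1.06%) were higher in the dorsal comparison, mir-452 and mir-1249, and 3 (1.6%) were lower, mir-1271, mir-216 and mir-375. Scaled by the conserved table's own totals, the mir-1249 log2 ratio of 1.07 became 0.95, under 2-fold. In the same 188, 5 (2.66%) were lower in the ventral comparison, mir-452 among them, and 0 were higher. The family crossed difference was 3.62 for mir-452, first among 188, and 1.15 for mir-1249, eighth.

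**Figure D5:**
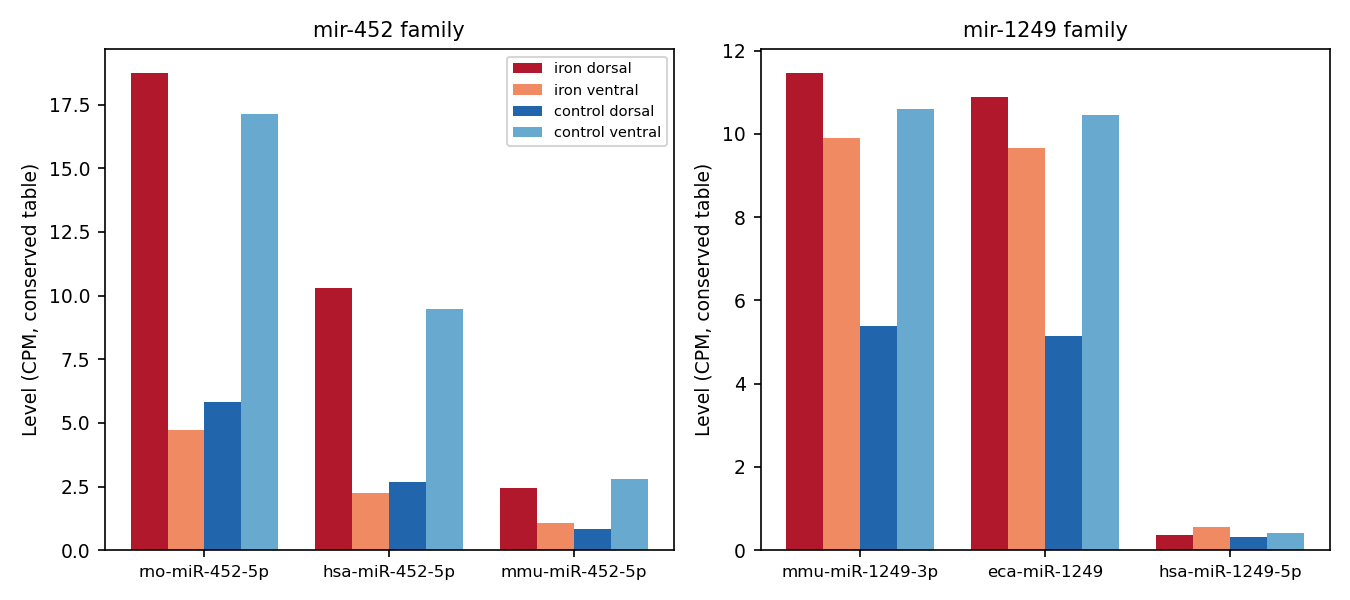
Level in CPM (vertical axis, from 0) of the 3 most read sequences of the mir-452 family (left) and of the mir-1249 family (right) in the conserved table; bars are single libraries, with no error drawn because reads were divided among sequences. The mir-452 sequences are high in iron dorsal and control ventral, and both 3p sequences of mir-1249 are low in control dorsal.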

How the data were processed

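Reads were trimmed with cutadapt 1.2.2, per the submitters' processing notes, which also name the pig builds Sscrofa 10.2 and susScr 3. The aligner, the counting tool and the miRNA release are each not given in the sources used here. Estimated counts (reads, partly fractional) were deposited in all 3 tables, per the file headers, with the authors' RPM values in the annotated table. Reads were rounded to whole numbers. Annotated rows that list identical precursors and whose reads differ by at most 0.1% were merged. Libraries were scaled with TMM (edgeR 4.0.16, R 4.3.3) on the annotated table, also for the conserved table. Ratios carry exact conditional binomial intervals and the crossed difference a Wald interval from the 4 counts (scipy 1.17.1). Both were checked on simulated Poisson counts, the model they assume. That check covers the computation and not how amplified reads scatter. No p-value is given, since there is 1 library per group. The members and lists were chosen with earlier results of these data known. Named were the members, their family sequences, the 3 nearest patterns to each and, of the X-linked list, any 2-fold difference and both extremes. The miR-183 cluster, miR-146b and the other immune-associated miRNAs, miR-128 and the conserved families outside the members were added after their values were seen. The 8 RPM columns of the other tables were not used. Reads of near-identical miRNAs could have been split between rows. DESeq2 1.42.0 size factors were an alternative scaling.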

Additional observations from a re-analysis of the deposited data

Results flagged for a closer look

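For miR-452 and for miR-1249 the iron ratio lay above 1 in the dorsal library pair and below 1 in the ventral pair. The ventral ratio of miR-1249 was only 0.861, and its interval reached past 1 with DESeq2 size factors and in the conserved table. The log2 iron ratio in dorsal minus that in ventral was 3.61 for miR-452 and 1.27 for miR-1249. The difference between the regions was not tested, because there is 1 pooled library per group, and both miRNAs were chosen for it.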

How the results depend on the processing

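The log2 ratios and crossed differences of the members, and the ratio of miR-224 to miR-452, stayed within their counting intervals under each alternative run (119 values). These runs rescale or recount the same libraries, and the miR-224 intervals are so wide that staying inside them says little. The crossed difference ranged from 3.501 to 3.65 for miR-452 and from 1.15 to 1.31 for miR-1249, and miR-452 kept all 4 of its 2-fold counts. miR-1249 lost its 2-fold count for iron in dorsal with total reads and with the authors' RPM. In control piglets it lost the count with the authors' RPM and in the conserved table. Counts over all miRNAs differed in 26 of 64 cases, in 20 of them by more than 1.5 times or to or from 0, given first. For iron against control in dorsal, 1 was higher and 3 lower with total reads, 1 and 2 with the authors' RPM, 3 lower without a filter, 0 higher with a minimum of 100 CPM, and 3 families lower in the conserved table. For iron against control in ventral, 2 were higher and 7 lower without a filter, 2 lower with a minimum of 100 CPM, and 0 families higher. For dorsal against ventral in iron piglets, 2 were lower with total reads, 2 higher and 2 lower without a filter, 0 and 0 with a minimum of 100 CPM, and 7 families lower. In control piglets 2 were higher and 9 lower without a filter, and 1 lower with a minimum of 100 CPM. The 6 smaller changes were 3 higher for iron in dorsal with rows not merged and without a filter, 5 families lower for iron in ventral, and in control piglets 5 lower with total reads, 3 with the authors' RPM and 6 with rows not merged. A filter changes how many miRNAs are tested; the cause was not tested for the other settings. Neither member reaches 100 CPM, so that setting gives them no value. With scaling from 3 libraries, chosen after seeing the data and changing no read count, the miR-452 log2 ratios in the comparisons left were 1.74 to 1.78 (iron against control, dorsal), -1.85 to -1.83 (ventral), 1.92 to 1.95 (dorsal against ventral, iron) and -1.66 (control), and those of miR-1249 were 1.01 to 1.05, -0.23 to -0.22, 0.22 to 0.24 and -1.02. Depth limits miR-224 most, at 1 to 6 reads per library. No paired analysis was possible because each group is 1 library and the labels give no replicate numbers.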
